A study of Mus musculus with 11 samples.

Results

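The methionine cycle and transsulfuration genes were followed here in mouse liver. The set held the 10 genes Mat1a, Gnmt, Ahcy, Bhmt, Bhmt2, Mtr, Mtrr, Cbs, Cth and Nnmt, picked by symbol from the 36788 gene entries of the deposited liver table. All 10 were found, and all 10 passed the filter on low values, a mean of at least 0.5 CPM (reads on a gene scaled to a library total of 1000000). The libraries came from WT C57BL/6 female mice older than 12 weeks, all of them ovariectomized (OVX) and kept on high-fat diet, so that absent ovaries and the diet were common to both groups. The FSH group (5 livers, numbered 1, 2, 3, 4 and 6) received daily injections of follicle-stimulating hormone, and the saline group (6 livers) received saline. Total RNA of whole liver was sequenced, so the values sum over all liver cells, and fewer cells of a type and less RNA per cell cannot be told apart. The labels do not say that the numbered livers came from separate animals, and p-values measure the spread between these samples.

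The cycle starts with methionine. Methionine adenosyltransferase joins it to ATP to give S-adenosylmethionine (SAM), the methyl donor of the cell, and methyltransferases turn SAM into S-adenosylhomocysteine (SAH), which is split to homocysteine. Homocysteine is then either methylated back to methionine, with the methyl group of betaine or of folate, or drained through transsulfuration to cysteine, the precursor of glutathione and taurine. The liver is the main site of this metabolism, and the betaine route is strong there.

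Bhmt and Cbs, the enzymes of the betaine route and of the entry to transsulfuration, were lower in FSH livers than in saline livers, without overlap between the groups. Bhmt was at 0.543 times its saline level and Cbs at 0.621 times. The other 8 genes did not pass the test. In limma's moderated test on log2(CPM + 0.5), adjusted over the 12733 genes tested, 2 of the 10 genes passed an adjusted p of 0.05 in either direction, where 10.6% of all genes tested did. A count of 2 among 10 lies close to that background, and it says nothing of the pathway as a whole. Both were lower, as were 4.41% of all genes tested, and 0 of the 10 also passed a log2 fold change of 1 in size. Of all genes tested 1.83% did, 0.942% lower and 0.887% higher. Of the 10 log2 fold changes, 5 lay above 0 and 5 below, with a median of -0.035 against 0.024 over all genes tested. The groups did not overlap for Bhmt and Cbs, which held for 6.67% of all genes tested in either direction, for 2.72% with FSH lower and for 3.95% with FSH higher.

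**Figure D1:**
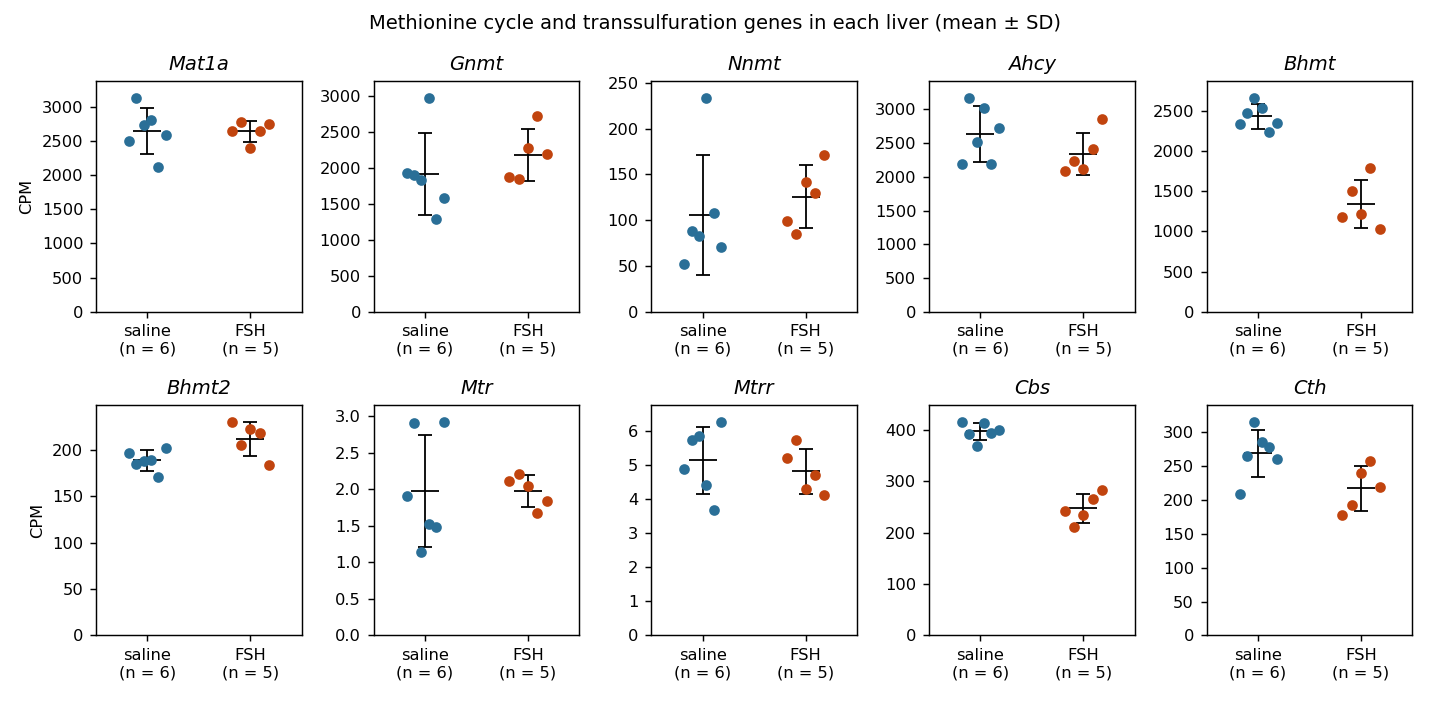
CPM of the 10 genes in each liver (points), with the mean and SD as bars, for 6 saline and 5 FSH livers; each panel has its own linear axis from 0. The FSH points lie below all saline points for Bhmt and Cbs, whose means were 1342 against 2430.1 CPM and 248 against 397 CPM, and the groups overlap in the other 8 panels.

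The DNA just before the start sites of Bhmt, Cbs and Bhmt2 is shown because Bhmt and Cbs were the 2 genes that fell, and Bhmt2 is the neighbour of Bhmt that did not. Bases are from RefSeq on GRCm38.p6, 5′ to 3′ along the gene, which is the minus strand in all 3. RefSeq promoters reached from 250 bases before to 50 after the start and were found for 7 of the 10 genes. The Bhmt and Cbs stretches stop where the transcript of GENCODE M21 begins, since that annotation starts Bhmt 203 bases and Cbs 33 bases further upstream than RefSeq does. Capitals mark AGGTCA, the hexamer that many nuclear receptors bind, and CACGTG, the E-box.
Bhmt, chr13:93637962-93638008: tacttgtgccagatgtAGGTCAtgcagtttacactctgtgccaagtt
Cbs, chr17:31637239-31637455: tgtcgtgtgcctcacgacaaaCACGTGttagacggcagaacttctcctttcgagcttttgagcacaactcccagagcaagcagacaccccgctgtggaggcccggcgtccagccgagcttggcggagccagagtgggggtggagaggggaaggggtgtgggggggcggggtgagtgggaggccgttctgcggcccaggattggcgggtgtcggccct
Bhmt2, chr13:93674303-93674552: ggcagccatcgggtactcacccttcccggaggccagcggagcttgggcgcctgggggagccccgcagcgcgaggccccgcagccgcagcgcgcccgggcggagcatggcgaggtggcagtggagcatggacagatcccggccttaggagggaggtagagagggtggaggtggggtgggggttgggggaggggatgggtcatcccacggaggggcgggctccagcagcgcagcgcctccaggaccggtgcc

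The 300-base windows of the 3 genes differed in base composition. GC content was 48.0% for Bhmt, 66.7% for Cbs and 73.7% for Bhmt2, against a median of 52.7% over 32851 promoters. CpG pairs numbered 8, 22 and 26, with a median of 7 over all promoters. On both strands, 6 motifs were searched, which were chosen after the sequences had been seen. AGGTCA stood in the window of Bhmt 3 times and in 16.3% of all promoters at least once, with at least 3 matches in 0.183% of them; the other 2 Bhmt matches lie past the GENCODE start and are not shown. The E-box CACGTG stood in the window of Cbs once and in 7.15% of all promoters. CCAAT stood in the Bhmt and Cbs windows and in 37.4% of all promoters. Genes that did not pass the test held these letters too, AGGTCA in the Ahcy and Gnmt windows and CCAAT in those of Ahcy, Gnmt, Mtr and Mtrr. The hexamer AGAACA of glucocorticoid receptor sites (19.0% of all promoters), the forkhead site GTAAACA (3.65%) and the D-box TTATGTAA (0.938%) were in none of the 3 windows, and the Bhmt2 window held none of the 6 motifs. These matches describe the letters in the windows only.

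SAM synthesis was first examined. Mat1a, which encodes the methionine adenosyltransferase of adult liver, had 2645, 2787, 2394, 2655 and 2744 CPM in FSH livers 1, 2, 3, 4 and 6. Saline livers ran from 2121 to 3129.9 CPM with a median of 2658. Every FSH liver lay inside the saline range. The means were 2645 ± 152 CPM (SD, n = 5) and 2647 ± 337 CPM (SD, n = 6), and the log2 fold change was 0.01 (SE 0.10, limma adjusted p = 0.979). Its 95% interval reached from 0.863 to 1.17 times the saline level.

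Mat2a encodes the catalytic subunit used by most other tissues, and Mat2b its regulatory subunit. Mat2a had 52.5, 51.9, 53.4, 63.3 and 56.0 CPM in the FSH livers and 57.1 to 84.9 CPM (median 65.3) in the saline livers. FSH livers 1, 2, 3 and 6 lay below all saline livers, but the log2 fold change of -0.26 (SE 0.10) did not pass the test (limma adjusted p = 0.123). Mat2b had 40.9, 42.6, 45.6, 36.8 and 30.2 CPM in the FSH livers and 26.4 to 33.5 CPM (median 30.4) in the saline livers. It was higher in FSH livers by a log2 fold change of 0.38 (SE 0.11, limma adjusted p = 0.0401), with FSH liver 6 inside the saline range. This call was lost under 11 of 23 other processing settings.

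The ratio of Mat1a to Mat2a was taken within each liver, as a measure that another scaling of the libraries leaves almost unmoved. FSH livers 1, 2, 3, 4 and 6 had ratios of 50.4, 53.7, 44.9, 41.9 and 49.0, and saline livers had ratios of 33.1 to 46.3 (median 40.7). The mean log2 ratio was 5.57 ± 0.14 (SD, n = 5) in FSH livers and 5.30 ± 0.18 (SD, n = 6) in saline livers. The difference of 0.27 had p = 0.0303 in a two-sided exact permutation test over the 462 splits of the livers. The groups overlapped, and p rose to 0.0667 without FSH liver 1, to 0.0762 without FSH liver 2 and to 0.0667 without FSH liver 6. The coding sequences of the pair were identical at 73.6% of aligned bases, and their transcripts shared no identical run longer than 15 bases, well under the read length of 100 bases.

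Gnmt and Nnmt use SAM on small molecules. Gnmt, glycine N-methyltransferase, is an abundant liver enzyme that consumes surplus SAM. It had 1875, 1842, 2277, 2728 and 2202 CPM in the FSH livers and 1287 to 2974 CPM (median 1867) in the saline livers. The spread was wide in both groups, with a coefficient of variation of 16.5% in FSH and 29.7% in saline livers. Its log2 fold change was 0.22 (SE 0.17, limma adjusted p = 0.481), with an interval of 0.900 to 1.51 times the saline level. It moved between 0.11 (without saline liver 5) and 0.36 (without saline liver 4) with single livers left out.

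Nnmt, nicotinamide N-methyltransferase, varied most among the 10 genes in the saline livers. FSH livers had 99.6, 84.6, 142, 130.2 and 171 CPM, and saline livers had 52.5 to 233 CPM (median 85.3). Saline liver 4, with 233 CPM, lay above every other liver of either group. The highest saline value was 4.45 times the lowest, against 2.03 times in FSH livers. The log2 fold change of 0.38 (SE 0.29) had a limma adjusted p of 0.474 and an interval of 0.840 to 2.01 times the saline level. Leaving out single livers moved it between 0.21 (without saline liver 1, adjusted p = 0.697) and 0.64 (without saline liver 4, adjusted p = 0.0657).

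Ahcy, adenosylhomocysteinase, splits SAH and so clears an inhibitor of methyltransferases. It had 2094, 2237, 2120.2, 2408 and 2855 CPM in the FSH livers and 2191 to 3168 CPM (median 2619) in the saline livers. FSH livers 1 and 3 were below the saline range and the others inside it. For Ahcy the log2 fold change was -0.16 (SE 0.12, limma adjusted p = 0.449), with an interval of 0.744 to 1.07 times the saline level. It was -0.030 with quantile normalization and -0.24 (without FSH liver 6) to -0.11 (without saline liver 2) with single livers left out.

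Remethylation was then examined, starting with the betaine route. Bhmt, betaine-homocysteine S-methyltransferase, passes a methyl group of betaine to homocysteine and yields methionine and dimethylglycine. FSH livers 1, 2, 3, 4 and 6 had 1179.6, 1501, 1216, 1782 and 1031 CPM. Saline livers had 2239 to 2657 CPM with a median of 2409. The highest FSH liver stayed below the lowest saline liver. The means were 1342 ± 299 CPM (SD, n = 5) and 2430.1 ± 153 CPM (SD, n = 6). The log2 fold change was -0.88 (SE 0.13, limma adjusted p = 0.000492), placing Bhmt at number 115 of the 12733 genes ordered by p. The 95% interval was 0.451 to 0.653 times the saline level. The exact permutation test gave p = 0.00216 (two-sided), the smallest that 462 splits allow. FSH livers were also less alike, with a coefficient of variation of 22.3% against 6.31% in saline livers, a difference that was not tested.

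Bhmt lies on chr13:93616675-93637961 of GRCm38 (minus strand), and Bhmt2 follows upstream on the same strand at chr13:93655720-93674302. The antisense gene Gm15622 shares exon sequence with Bhmt on the other strand, and without a stated use of strand their reads cannot be told apart. Gm15622 had 14 to 71 reads per library, while Bhmt had at least 11765. The coding sequences of Bhmt and Bhmt2 were identical at 75.4% of 1088 aligned bases, and the longest run shared by their transcripts was 59 bases, shorter than a full read.

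Bhmt2 encodes the related methyltransferase that takes its methyl group from S-methylmethionine. It had 230.3, 205, 223, 218 and 184 CPM in the FSH livers and 171 to 203 CPM (median 189) in the saline livers. FSH livers 1, 2, 3 and 4 were above all saline livers and FSH liver 6 was within their range. The log2 fold change of 0.17 (SE 0.08) did not pass the test (limma adjusted p = 0.210), and its interval was 0.998 to 1.26 times the saline level.

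Bhmt was also set against its neighbour, a ratio whose separation of groups was fixed by the values above. Bhmt already separated the groups and Bhmt2 varied little, so the ratio adds no separate evidence. The ratio of Bhmt to Bhmt2 was 5.12, 7.33, 5.46, 8.16 and 5.61 in FSH livers 1, 2, 3, 4 and 6. It was 11.6 to 14.1 (median 13.3) in saline livers, so the groups did not overlap. This ratio and the Cbs to Cth ratio given further on were chosen after the values had been seen, and no test was run on them.

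**Figure D2:**
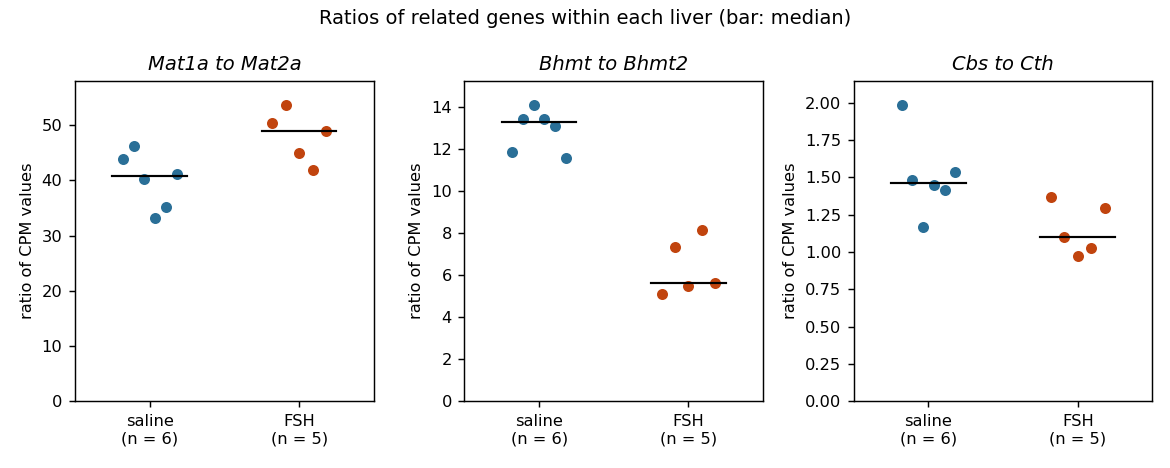
Ratio of CPM values of 3 gene pairs in each liver (points), with the median as a bar, for 6 saline and 5 FSH livers; axes are linear and start at 0. Bhmt to Bhmt2 separates the groups, as Bhmt alone already does, with 8.16 as the highest FSH and 11.6 as the lowest saline ratio. Mat1a to Mat2a and Cbs to Cth overlap.

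The folate route had low CPM values. Mtr, methionine synthase, moves the methyl group of methyltetrahydrofolate to homocysteine with vitamin B12 as cofactor. It had 2.11, 2.21, 2.04, 1.68 and 1.84 CPM in the FSH livers and 1.14 to 2.92 CPM (median 1.72) in the saline livers, or 13 to 47 reads per library. Its log2 fold change was 0.05 (SE 0.20, limma adjusted p = 0.913) and its interval 0.775 to 1.38 times the saline level. The coefficient of variation was 38.6% in saline and 10.9% in FSH livers. Mtrr, the reductase that keeps Mtr active, had 5.22, 5.75, 4.30, 4.71 and 4.12 CPM in the FSH livers and 3.70 to 6.28 CPM (median 5.32) in the saline livers. Its log2 fold change was -0.08 (SE 0.14, limma adjusted p = 0.797) and its interval 0.768 to 1.17 times the saline level, and leaving out single livers moved it between -0.16 (without saline liver 5) and -0.019 (without saline liver 6).

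Transsulfuration has 2 steps. Cbs, cystathionine beta-synthase, joins homocysteine to serine and commits its sulfur to cysteine. FSH livers 1, 2, 3, 4 and 6 had 243, 212, 234, 265 and 284 CPM. Saline livers had 369 to 416 CPM with a median of 397. No FSH liver reached the saline range. The means were 248 ± 27.9 CPM (SD, n = 5) and 397 ± 16.9 CPM (SD, n = 6), and the log2 fold change was -0.69 (SE 0.08, limma adjusted p = 0.000121). The 95% interval was 0.549 to 0.702 times the saline level, and Cbs stood at number 71 by p. The exact permutation p was again 0.00216 (two-sided). Cbs lies on chr17:31608894-31637238 of GRCm38 (minus strand).

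Cth, cystathionine gamma-lyase, releases cysteine from cystathionine. It had 178, 192, 240.0, 258 and 219 CPM in the FSH livers and 209.5 to 316 CPM (median 272) in the saline livers. FSH livers 1 and 2 were below all saline livers, and all 5 were below the saline median. The log2 fold change of -0.31 (SE 0.12) did not pass the test over all genes (limma adjusted p = 0.107), with an unadjusted interval of 0.679 to 0.958 times the saline level. Without saline liver 1, which had the lowest saline value, the log2 fold change was -0.38 with a limma adjusted p of 0.0414. With the replicate number added to the fit as a block, it was -0.30 with a limma adjusted p of 0.0492. The ratio of Cbs to Cth was 0.974 to 1.37 (median 1.10) in FSH livers and 1.17 to 1.99 (median 1.46) in saline livers, with overlap.

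On GRCm38 the other genes lie at chr14:41105035-41124412 (Mat1a, plus strand), chr17:46725664-46729168 (Gnmt), chr2:155059310-155074497 (Ahcy), chr13:12182712-12258113 (Mtr), chr13:68560780-68582149 (Mtrr), chr3:157894248-157925077 (Cth) and chr9:48591877-48605153 (Nnmt), all but Mat1a on the minus strand. Levels were compared between genes per kilobase of the principal transcript in GENCODE M21, as means over all 11 livers. Gnmt was highest at 1971 CPM per kb, followed by Ahcy at 984, Bhmt at 777 and Mat1a at 763. The ranges over livers of neighbours in this order overlapped down to Mat1a, though Gnmt lay above Ahcy within every liver. Bhmt and Mat1a changed places between the groups, with Bhmt at 539 and Mat1a at 763 CPM per kb in FSH livers and Bhmt at 976 and Mat1a at 763 CPM per kb in saline livers. A gap followed, with Cth at 135, Nnmt at 110.0, Bhmt2 at 80.8 and Cbs at 52.9 CPM per kb. Cth and Nnmt were nearly level in FSH livers, at 119.8 and 120.3 CPM per kb, and stood at 148 and 101 CPM per kb in saline livers. The ranges of Cth, Nnmt and Bhmt2 overlapped as neighbours, while those of Bhmt2 and Cbs did not (at least 69.2 against at most 66.8 CPM per kb). Mtrr at 1.30 and Mtr at 0.239 CPM per kb were lowest, without overlap between them. The order depends on the length used. Before division by length, Cbs (212 to 416 CPM) lay above Bhmt2 (171 to 230.3 CPM) in every liver. The place of Cbs below Bhmt2 thus comes from the transcript length taken for Cbs, 6226 bases. With all annotated exons counted, Bhmt was at 336 CPM per kb, below Mat1a at 763, and Nnmt at 72.8 fell below Bhmt2 at 80.8, with Cth at 88.0. Summed, the 10 genes made up 8551 to 10450.4 CPM (median 9068) in FSH livers and 8793 to 12462 CPM (median 10444) in saline livers. Bhmt took 10.6% to 17.1% of that sum in FSH livers and 20.3% to 25.5% in saline livers, and Cbs took 2.34% to 2.93% and 3.31% to 4.48%.

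Genes connected with the cycle or with Nnmt were read from 8 lists with 56 genes, of which 52 passed the filter. In limma's test 10 were higher and 5 lower in FSH livers at an adjusted p of 0.05, against 6.19% and 4.41% of all genes tested, and their median log2 fold change was 0.095. The same shares of all genes are the background for the small counts of each list below. These 15 calls fell to 9 without FSH liver 1 or FSH liver 3, and the count over all genes fell from 1350 to 803 without FSH liver 1.

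Below transsulfuration, 3 of 7 tested genes from cysteine to taurine and glutathione were lower and 0 higher, with a median log2 fold change of -0.53. Cdo1, cysteine dioxygenase, which opens the way to taurine, had 1014 to 1511 CPM in FSH livers and 1852 to 2363 CPM in saline livers (log2 fold change -0.78, SE 0.11, limma adjusted p = 0.000478). Gclc, the catalytic subunit of the first glutathione enzyme, had 134 to 189 CPM against 226 to 474 CPM (log2 fold change -1.0, SE 0.16, limma adjusted p = 0.00130). Gss, glutathione synthetase, had 37.0 to 65.0 CPM against 68.5 to 97.3 CPM (log2 fold change -0.81, SE 0.13, limma adjusted p = 0.00126). All 3 were without overlap between the groups, as were 2.72% of all genes tested with FSH lower. Gclm, the regulatory subunit that pairs with Gclc, did not pass (log2 fold change -0.07, SE 0.11, limma adjusted p = 0.773); it is given for comparison and was picked after its value was seen.

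Of 5 genes of sulfide oxidation, 1 was lower and 2 were higher. Ethe1, the mitochondrial persulfide dioxygenase, had 23.0 to 26.6 CPM in FSH livers and 43.0 to 55.3 CPM in saline livers, without overlap (log2 fold change -0.91, SE 0.09, limma adjusted p = 2.7e-05). Of all genes tested, 2.72% were without overlap with FSH lower. Tst, thiosulfate sulfurtransferase, and Sqor, sulfide quinone oxidoreductase, were higher by 0.39 and 0.32 (limma adjusted p = 0.0310 and 0.0334). The groups overlapped for both, and their calls were lost under 13 and 12 of 23 other settings.

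Among small-molecule methyltransferases that draw on SAM, 3 of 7 tested genes were higher and 0 lower. Hnmt, which methylates histamine, rose by 0.55 on the log2 scale (SE 0.12, limma adjusted p = 0.00889) and Tpmt, which methylates thiopurine drugs, by 0.56 (SE 0.14, limma adjusted p = 0.0183). Inmt, an indolethylamine methyltransferase, had 1735 to 2129.9 CPM in FSH livers and 839 to 1727 CPM in saline livers, so that its groups just failed to meet (log2 fold change 0.67, SE 0.18, limma adjusted p = 0.0272). Of all genes tested, 3.95% were without overlap with FSH higher. The call of Inmt was lost under 6 of 23 other settings and that of Tpmt without FSH liver 1, and the list held 1 call without FSH liver 1 and 5 with array weights. Pnmt was at 0 reads in every library.

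Of 12 tested genes of nicotinamide and NAD metabolism, the wider pathway around the Nnmt substrate nicotinamide, 3 were higher and 0 lower (5 past the test without saline liver 1). Nmrk1, nicotinamide riboside kinase, had 35.1 to 43.7 CPM in FSH livers and 16.7 to 23.1 CPM in saline livers (log2 fold change 1.02, SE 0.10, limma adjusted p = 1.8e-05). Nampt, the rate-limiting enzyme of NAD salvage, rose by 0.57 (SE 0.11, limma adjusted p = 0.00337) and Nmnat3 by 0.65 (SE 0.13, limma adjusted p = 0.00396) on the log2 scale. The groups did not overlap for any of the 3, as for 3.95% of all genes tested with FSH higher.

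The remaining lists held few calls. From choline and betaine to sarcosine 0 of 4 genes passed, and the smallest p was that of Sardh, sarcosine dehydrogenase (log2 fold change -0.22, SE 0.11, limma adjusted p = 0.227). Of 13 tested genes of polyamines and methionine salvage, Apip, a dehydratase of the salvage pathway, was higher by 0.48 (SE 0.12, limma adjusted p = 0.0209), a call lost without FSH liver 1, 3 or 4 (adjusted p up to 0.0654). Of the 2 relatives of Ahcy, Ahcyl2 was lower by a log2 fold change of -0.41 (SE 0.11, limma adjusted p = 0.0300), a call lost under 7 of 23 other settings.

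**Figure D3:**
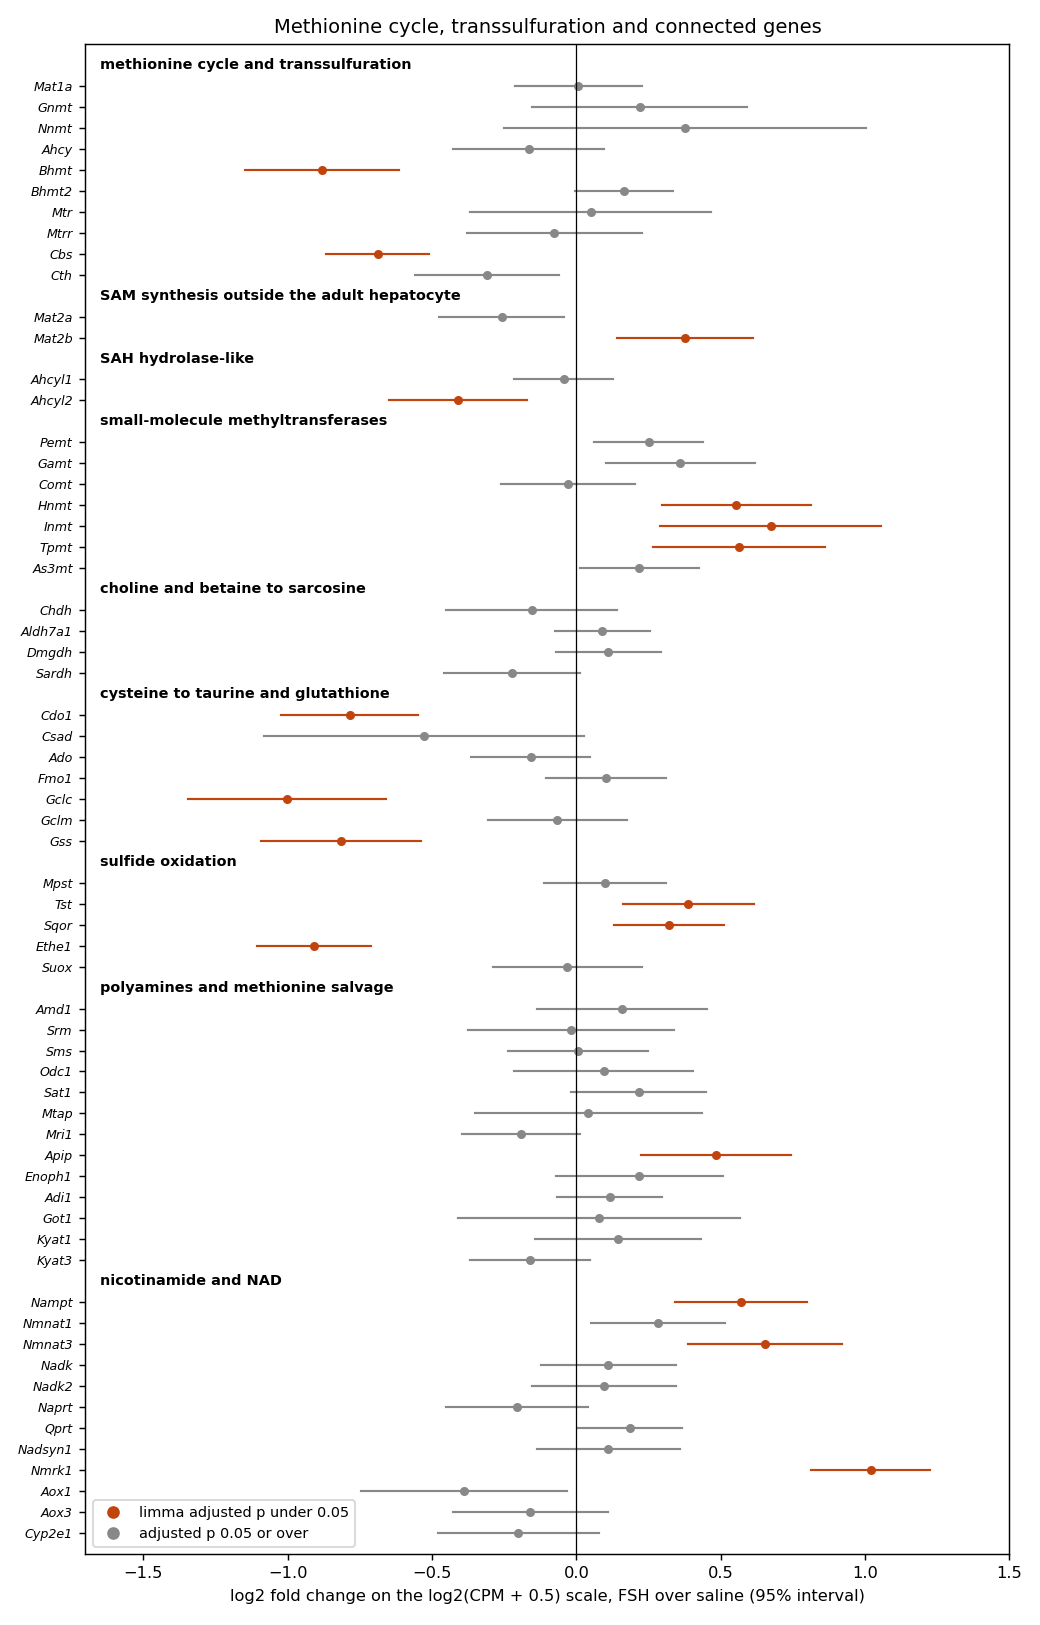
Log2 fold changes (FSH over saline) of the 10 genes and of 52 connected genes on the log2(CPM + 0.5) scale, with 95% intervals as lines; colour marks a limma adjusted p under 0.05. Gclc at -1.0 and Ethe1 at -0.91 lie farthest to the left, and Nmrk1 at 1.02 farthest to the right.

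Other features of the libraries moved with the groups to differing degrees. Between 11410596 and 19909327 reads lay on genes in FSH livers and between 10801891 and 16077442 in saline livers. Of 8 hepatocyte markers, 6 had log2 fold changes below 0 and 2 above. Hnf4a was lower (log2 fold change -0.44, limma adjusted p = 0.0369) and the other 7 did not pass the test. Among these 7, Serpina1a was without overlap between the groups, with FSH lower, as were 2.72% of all genes tested. The sum of the 8 overlapped (95800 to 114779 CPM against 89992 to 118305 CPM), but most of it was Alb. Of 7 pericentral markers 0 passed. Of 8 periportal markers Gls2 and Sdhaf4 were higher and Cyp2f2 lower (log2 fold change -0.94, limma adjusted p = 2.3e-05), with sums of 4078 to 5921 CPM in FSH and 4781 to 9344 CPM in saline livers. All 7 stellate cell and all 6 Kupffer cell markers had log2 fold changes below 0, with 0 past the test. Their sums were 242 to 309 CPM and 93.3 to 257 CPM in FSH livers, against 276 to 349 CPM and 153 to 303 CPM in saline livers. Of 6 sinusoidal endothelial markers, 5 had log2 fold changes below 0 and 1 above, and Lyve1 was lower (sums 124 to 187 against 149.7 to 175 CPM). Of 4 tested cholangiocyte markers Krt7 was higher (sums 7.97 to 11.2 against 8.45 to 10.5 CPM). Of 2 tested pancreatic acinar and 5 erythroid markers 0 passed (sums 11.3 to 16.3 against 8.07 to 14.4 CPM, and 464 to 790.04 against 425 to 1009 CPM), and Prss2 and Pnlip were at 0. Of 7 adipocyte markers only Cidec was high enough to test and did not pass, Lep and Retn were at 0, and the sums were 1.40 to 7.38 against 1.43 to 4.37 CPM. Dbp, a transcription factor whose liver level swings with the time of day, had 42.6 to 121 CPM in FSH livers and 3.40 to 4.95 CPM in saline livers, and the hour of collection was not given in the sources used here. The marker genes named here and Dbp were picked after their values were seen. The part of these differences in the Bhmt and Cbs results was not tested.

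Bhmt and Cbs passed the test under each of 23 other processing settings, with log2 fold changes of -0.99 to -0.77 and of -0.74 to -0.63. Their adjusted p did not exceed 0.00294 and 0.00128.

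**Figure D4:**
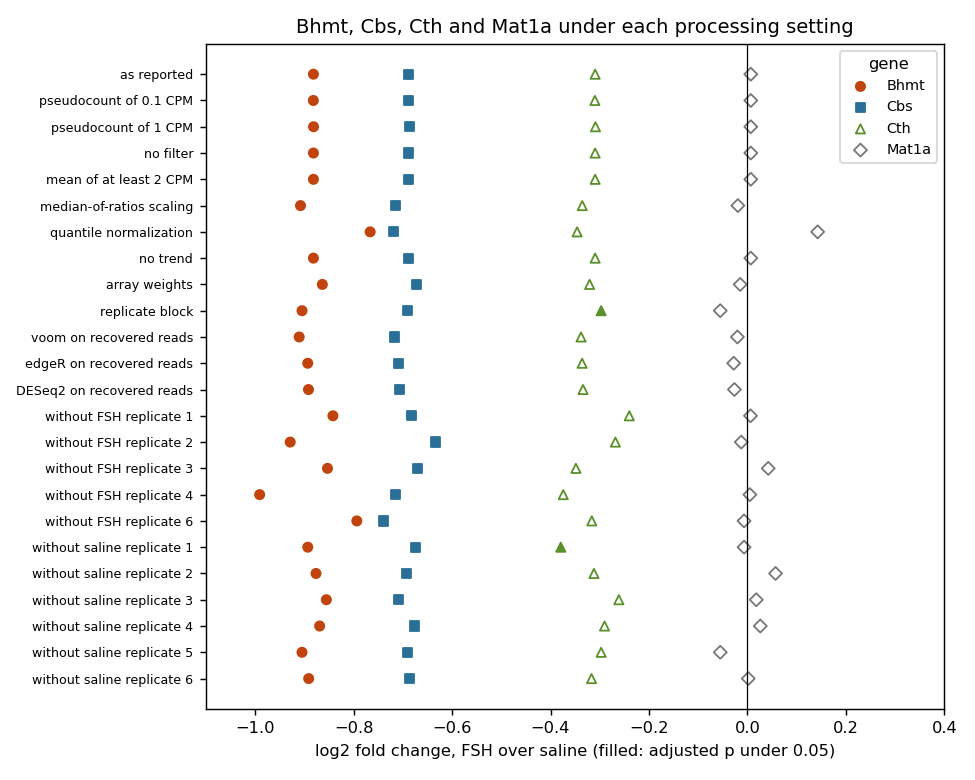
Log2 fold change (FSH over saline) of Bhmt, Cbs, Cth and Mat1a under the reported setting and each of 23 others; filled symbols mark an adjusted p under 0.05. Bhmt (-0.99 to -0.77) and Cbs (-0.74 to -0.63) are filled throughout, Cth is filled with the replicate block and without saline liver 1, and Mat1a lies between -0.055 and 0.14, highest with quantile normalization.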

How the data were processed

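Per the labels and the study's methods, liver RNA was made into NEBNext Ultra libraries and sequenced as paired 100-base reads. On extraction the sources differ, the labels giving a papain digest of whole liver and the design text a column kit. The submitters' processing notes name FastQC 0.11.2, Trim Galore 0.3.3, cutadapt, STAR, RSEM and the mm10 build, and how strand was used is not given in the sources used here. What the authors deposited is a single CPM matrix in which every library sums to 1000000.

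The filter kept genes averaging 0.5 CPM or more, and 0.5 CPM was added before taking log2, which understates changes of low genes. The groups were compared by limma 3.58.1 under R 4.3.3 with its trend option, and p-values were adjusted by Benjamini-Hochberg over all genes tested. Dividing by the smallest step gave whole reads for 100% of values (tolerance 0.01). These reads gave depth (3 reads, the limit of a count of 0, were 0.151 to 0.278 CPM, counting error only) and were tested with edgeR 4.0.16 and DESeq2 1.42.0 as alternatives. Symbols, positions and transcript lengths came from GENCODE M21, which named 35555 entries, and 1233 stayed unnamed. Intervals of 95% are for single genes and unadjusted.

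Some connected results are not reported here. The 10 genes, the lists and the tests were chosen with earlier results of these data known. From each connected list, up to 4 genes past the test were named, or the smallest p where none passed, and Mat2a and Mat2b always. On simulated counts for this comparison (12664 genes, 200 changed), limma called 50.7% of genes changed 1.5-fold, 95.5% of those changed 2-fold and 100% of those changed 4-fold, with 5.75% false calls. Every simulated gene had the same spread between livers (dispersion 0.0307). These rates therefore do not carry over to genes of wider spread, such as Nnmt, Mtr and Gnmt in the saline livers. Within groups, no library pair differed by as little as sampling noise (lowest mean chi-square 11.2). Alternatives were a replicate block, array weights, a fit with no trend, other tools, pseudocounts, filters and scalings, and leaving out each liver.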

Additional observations from a re-analysis of the deposited data

Results flagged for a closer look

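Among the 10 genes and the 17 connected genes named by the rule, the highest and lowest liver of each group was compared with the others by its gap over the group's range. Of 54 groups, 1 passed the criterion, and chance passes about 1 group in 20. Sardh in saline liver 5 was the lowest of its group, with 913 CPM against 1163 to 1255 CPM in the other saline livers, and the gap was 0.760 of the range on the log2 scale. No group of the 10 genes passed.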

How the results depend on the processing

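Of 23 alternatives for the fit, the calls of Bhmt and Cbs and the missing calls of Gnmt, Ahcy, Bhmt2, Mtrr and Nnmt held under all. Mat1a, near 0, changed sign to -0.020 with median-of-ratios scaling, -0.015 with array weights, -0.055 with the replicate block, -0.020 with voom, -0.028 with edgeR and -0.027 with DESeq2, was 0.14 with quantile normalization, and ran from -0.055 to 0.057 with single livers left out. Mtr changed sign to -0.0044 with the block, -0.043 with edgeR and -0.043 with DESeq2, ran from -0.059 to 0.15 with livers left out, and was not tested at a mean of at least 2 CPM. Neither passed the test anywhere. Cth passed with the replicate block (-0.30, adjusted p = 0.0492) and without saline liver 1, and ran from -0.38 to -0.24 with livers left out. The difference in log2 ratio of Mat1a to Mat2a ran from 0.21 to 0.31 with livers left out, and was 0.23 under the block (exact sign-flip p = 0.0625, the smallest that 5 pairs allow).

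The count of genes at an adjusted p of 0.05, 1350 as reported, ran from 803 (without FSH liver 1) to 1659 (without FSH liver 6) with livers left out, and was 1435 with edgeR, 1743 with DESeq2, 1452 with voom, 1892 with array weights, 1013 with no filter and 1210 with the block. At 1.5-fold in place of 2-fold, 707 genes and 2 of the 10 passed both thresholds. The 15 calls among connected genes ran from 9 (without FSH liver 1 or 3) to 17. The causes of these shifts were not tested. The same numbers in the labels of both groups gave no clear sign of paired livers. Correlations of deviations for numbers 1, 2, 3, 4 and 6 were 0.0651, 0.356, 0.0193, 0.137 and -0.0662, and only number 2 correlated best with its own. Such correlations cannot show that the livers were unpaired. The block leaves saline liver 5 without a partner. Mtr and Mtrr had as few as 13 and 40 reads in a library, and the part of depth in their errors was not tested.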
